A study of Mus musculus with 22 samples.

Results

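The genes described here are 10 immediate early and stress response genes, Fos, Fosb, Jun, Junb, Egr1, Ier2, Ier3, Atf3, Nr4a1 and Dusp1. They were chosen by name, with no measured value in the rule, and each symbol matched 1 of the 13812 rows of the deposited expression table. All 10 passed the filter on low values. The study sequenced RNA of sorted mouse retinal cells, namely rods and cones, which sense dim and bright light, and bipolar cells, the interneurons that carry their signal onward. Rods, cones and bipolars were each taken at P7, P13 and P30, that is 7, 13 and 30 days after birth. Rod bipolars, which receive from rods, and cone bipolars, which receive from cones, were collected at P13. That gave 11 groups of 2 libraries, 22 in all. The series design calls the bipolar cells ON-bipolars. The labels used here give age, tissue and cell type, and no genotype, strain, sort marker, sex, treatment or number of animals. Whether the 2 libraries of a group are from different animals is not stated there, and p-values then measure only how far libraries differ, and that spread can be technical. Every library came from sorted cells and no unsorted or rapidly lysed tissue was analysed here, so a level set by the collection and a level held in the retina cannot be told apart.

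Immediate early genes are switched on within minutes of a stimulus, before any new protein is made, and their messages decay fast. In neurons, light, synaptic input and growth factors raise them through calcium and MAP kinase signalling, which acts on the factors SRF and CREB at their promoters. Tissue dissociation and sorting are known to raise the same genes in many cell types, which is why they are often read as marks of handling. Fos, Fosb, Jun, Junb and Atf3 encode parts of the AP-1 factor and its relatives, Egr1 and Nr4a1 encode other transcription factors, and Ier2, Ier3 and Dusp1 encode a regulator of growth responses, a survival factor and a phosphatase that shuts MAP kinases off.

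CREB binds the cAMP response element, and its core is shown here because it was the motif shared by most of these genes. Windows of 250 bases that end just before the RefSeq transcription start (GRCm38.p6) were matched for 8 of the 10 genes, and those of Egr1 and Ier2 were not. The core TGACG, counted on both strands, was in 6 of the 8 windows and in 17.8% of 32851 windows of the same length over all genes. It occurred 2 times in Fos, 4 times in Nr4a1 and 3 times in Dusp1, and once each in Fosb, Junb and Atf3. The windows of Jun and Ier3 did not hold it. The full element TGACGTCA, which contains the core on both strands, was in the Dusp1 window and in 1.55% of all windows. These are matches of letters and not measured binding. Of the 6 windows with the core, those of Fos, Fosb, Nr4a1 and Dusp1 are printed as examples. That of Ier3, the gene that differed most between photoreceptors and bipolars, is printed beside them as a window without it. All read 5′ to 3′ on the strand of the gene, with the cores on either strand in capitals.
Fos, chr12:85473640-85473889, plus strand: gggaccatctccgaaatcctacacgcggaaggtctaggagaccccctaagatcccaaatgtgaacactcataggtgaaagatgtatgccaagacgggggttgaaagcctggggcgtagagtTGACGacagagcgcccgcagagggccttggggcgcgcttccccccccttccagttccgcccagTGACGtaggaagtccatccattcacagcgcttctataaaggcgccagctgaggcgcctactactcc
Fosb, chr7:19310046-19310295, minus strand: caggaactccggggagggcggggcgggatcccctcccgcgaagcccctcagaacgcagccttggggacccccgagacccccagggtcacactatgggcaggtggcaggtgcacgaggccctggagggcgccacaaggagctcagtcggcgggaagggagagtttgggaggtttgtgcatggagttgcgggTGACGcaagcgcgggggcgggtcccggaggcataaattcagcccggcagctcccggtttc
Nr4a1, chr15:101266596-101266845, plus strand: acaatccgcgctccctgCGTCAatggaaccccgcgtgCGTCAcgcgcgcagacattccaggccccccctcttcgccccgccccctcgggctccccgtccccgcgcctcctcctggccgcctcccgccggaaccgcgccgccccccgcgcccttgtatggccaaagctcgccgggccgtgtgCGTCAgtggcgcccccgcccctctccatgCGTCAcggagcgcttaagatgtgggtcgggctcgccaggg
Dusp1, chr17:26508473-26508722, minus strand: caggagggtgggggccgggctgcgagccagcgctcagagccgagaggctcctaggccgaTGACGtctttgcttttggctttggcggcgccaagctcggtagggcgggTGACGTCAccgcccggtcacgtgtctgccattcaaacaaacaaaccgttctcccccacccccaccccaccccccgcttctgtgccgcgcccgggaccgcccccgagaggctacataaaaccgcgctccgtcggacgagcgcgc
Ier3, chr17:35821463-35821712, plus strand: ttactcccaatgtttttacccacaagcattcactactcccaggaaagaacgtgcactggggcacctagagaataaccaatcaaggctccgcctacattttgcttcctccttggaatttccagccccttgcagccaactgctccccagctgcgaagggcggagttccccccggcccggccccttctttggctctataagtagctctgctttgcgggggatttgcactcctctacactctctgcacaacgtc

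In Fos the matches began 129 and 66 bases before the start, and the sequence TATAAA, found in 12.4% of all windows, began 33 bases before it. In Fosb the match began 60 bases before the start, and in Nr4a1 the matches began at 233, 213, 69 and 40 bases. In Dusp1 the full element began 143 bases before the start, and a further core 191 bases before it. The SRF site known as the CArG box, the AP-1 site TGANTCA and the EGR site GCGTGGGCG were in 0 of the 8 windows. Over all windows they were in 1.47%, 6.75% and 0.536%. Sites further upstream, and any of Egr1 and Ier2, whose windows were not matched, lay outside this search. The count of 0 therefore does not show that the promoters lack SRF, AP-1 or EGR sites.

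The libraries held 14403312 to 54384385 reads over the genes of the table. Levels are in CPM, the read count of a gene scaled to the size of its library. Each labelled cell type held its own markers. The summed level of 8 rod markers was 18849 to 46663 CPM in rods and at most 9836 CPM elsewhere. That of 8 cone markers was 15935 to 51671 CPM in cones and at most 443 CPM elsewhere, and that of 10 bipolar markers 7489 to 26464 CPM in the bipolar groups and at most 2423 CPM elsewhere. Each library pools many cells, so fewer cells with a transcript and less of it per cell cannot be told apart.

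Differences between cell types were seen in 5 of the genes above all. Ier3 was a photoreceptor transcript, at 132 to 738 CPM in every rod and cone library and at most 23.1 CPM in every bipolar, rod bipolar and cone bipolar library. Egr1 and Nr4a1 were highest in cones at P7, and Jun in rods at P7. Dusp1 went the other way and was highest in bipolars, while its levels in rod bipolars and in cone bipolars overlapped those of rods across ages. Exon length here is the union of all annotated exons, and whether reads scale with it in this linearly amplified RNA was not tested. Per kilobase of exon, the median level over the 22 libraries was 134 CPM for Ier3, 17.2 for Fos, 17.003 for Jun, 15.6 for Egr1 and 4.90 for Nr4a1. It was 3.49 CPM per kilobase for Ier2, 2.64 for Dusp1, 0.910 for Atf3, 0.376 for Fosb and 0.237 for Junb. Some libraries held no reads of the last 3, with Atf3 absent from 3 libraries and Fosb and Junb from 1 each. In rods at P13 Atf3 had 57 reads in replicate 1 and 0 in replicate 2, the deeper library, and the reason was not tested.

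**Figure D1:**
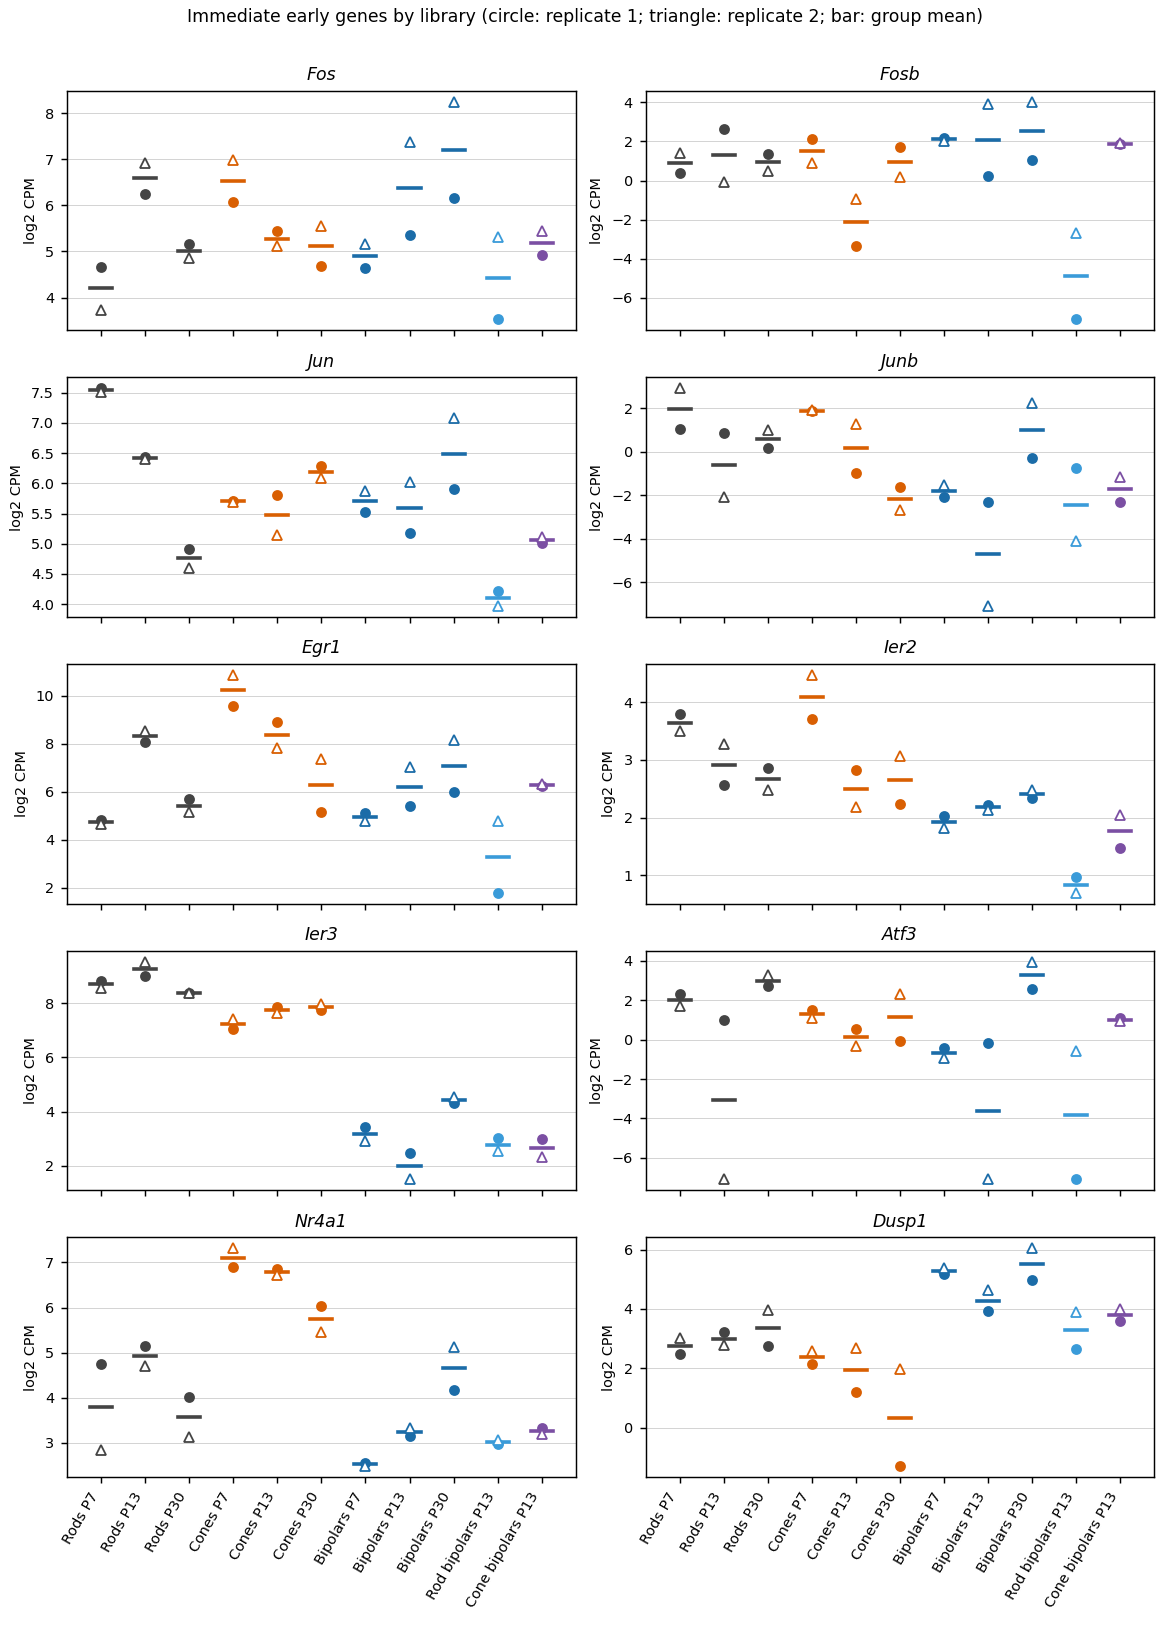
Level of each gene in each of the 22 libraries, in log2 CPM (y axis, scaled per gene), by cell type and age (x axis). Circles are replicate 1, triangles replicate 2 and bars the group mean; a library without reads sits at -7.10. Ier3 separates all photoreceptor libraries from all bipolar libraries, and the pairs for Fos, Fosb and Egr1 lie far apart in bipolars at P13 and P30.

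Each difference below is a limma estimate on the log2 scale ± its SE, for 2 libraries a group, with p-values adjusted by Benjamini-Hochberg over the 13405 genes tested. A gene was called at an adjusted p under 0.05 and a change of at least 1. Where the removal of a library ended a call, that library is named. At each age the comparison of rods with cones, of bipolars with rods and of bipolars with cones share libraries, and so are not independent.

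Fos (chromosome 12, 85473890 to 85477273, GRCm38, counted from 1 here and below) encodes the partner of Jun in AP-1 and is the most used marker of recent neuronal activity. Rod libraries held 25.5 and 13.3 CPM at P7, 76.4 and 121 CPM at P13 and 35.7 and 28.8 CPM at P30. Cone libraries held 67.2 and 126 CPM at P7, 43.5 and 34.5 CPM at P13 and 25.7 and 47.2 CPM at P30. Rods and cones thus exchanged places: at P7 both cone libraries were above both rod libraries, and at P13 both rod libraries were above both cone libraries. In bipolars Fos had 25.1 and 35.9 CPM at P7, 41.3 and 165 CPM at P13 and 71.3 and 304 CPM at P30. Rod bipolars had 11.5 and 39.6 CPM and cone bipolars 30.3 and 43.2 CPM. The 2 highest of the 22 values were the replicate 2 libraries of bipolars at P30 and P13, while replicate 1 of both groups lay within the range of the rods and cones. Rods minus cones was -2.32 ± 0.72 (adjusted p = 0.041) at P7, a call that was lost without any 1 of the 4 libraries (-2.79 to -1.85), and 1.31 ± 0.72 (adjusted p = 0.2) at P13. Fos rose in rods from P7 to P13 by 2.38 ± 0.72 (adjusted p = 0.035), and the call was lost without replicate 2 of rods at P7 (1.91) or at P13 (2.05) and with plain read totals. At P30 Fos was higher in bipolars than in rods by 2.20 ± 0.72 (adjusted p = 0.023) and than in cones by 2.08 ± 0.72 (adjusted p = 0.035). Without replicate 2 of bipolars at P30 these became 1.15 and 1.03 and neither was called. The call against rods was also lost without either rod library (2.35 and 2.04). That against cones was lost without replicate 1 of cones at P30 (1.64) and became 3.13 without replicate 1 of bipolars. 

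Fosb (chromosome 7, 19302696 to 19310051) encodes a Fos relative that can replace Fos in AP-1. It was low in all groups. Rod libraries held 1.304 and 2.61 CPM at P7, 6.32 and 0.956 CPM at P13 and 2.603 and 1.41 CPM at P30. Cone libraries held 4.36 and 1.84 CPM at P7, 0.0927 and 0.5098 CPM at P13 and 3.28 and 1.15 CPM at P30. Bipolar libraries held 4.47 and 4.13 CPM at P7, 1.16 and 15.1 CPM at P13 and 2.098 and 16.4 CPM at P30. As with Fos, replicate 2 of bipolars at P13 and P30 stood above all other libraries, and replicate 1 did not. In rod bipolars Fosb had 0 and 0.151 CPM, 3 reads in all, and in cone bipolars 3.702 and 3.72 CPM from 196 reads. Cone bipolars were higher than rod bipolars by a ratio of 62.8 in pooled reads, with an exact 95% interval of 21.2 to 307 that covers counting error only. The fitted difference, rod bipolars minus cone bipolars, was -6.77 ± 1.62 (adjusted p = 0.021); its size rests on the value that stands for no reads in replicate 1 of rod bipolars. Without that library it was -4.55 and not called, and the call was also lost without either cone bipolar library (-6.78 and -6.77). No other comparison called Fosb.

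Jun (chromosome 4, 95049034 to 95052222), the central subunit of AP-1 and a target of the JNK kinases, had the clearest course in time. Rod libraries held 190.3 and 183 CPM at P7, 86.2 and 84.6 CPM at P13 and 30.3 and 24.2 CPM at P30. Cone libraries held 52.5 and 51.5 CPM at P7, 55.9 and 35.4 CPM at P13 and 78.1 and 67.9 CPM at P30. The rod libraries thus stepped down with age with no overlap, while those of cones ranged from 35.4 to 78.1 CPM. Bipolar libraries held 46.3 and 58.6 CPM at P7, 36.2 and 64.8 CPM at P13 and 59.9 and 135 CPM at P30. Rod bipolars held 18.7 and 15.6 CPM and cone bipolars 32.3 and 34.6 CPM. Rods at P7 were above every other library, and rod bipolars below every other. Rods minus cones was 1.84 ± 0.34 (adjusted p = 0.0016) at P7, 0.94 ± 0.34 (adjusted p = 0.053) at P13 and -1.43 ± 0.34 (adjusted p = 0.0063) at P30, so the sign turned over between P7 and P30. The P30 call was lost without replicate 2 of rods (-1.27) and, at -0.82, with plain read totals. Bipolars minus rods was -1.84 ± 0.34 (adjusted p = 0.00065) at P7 and 1.73 ± 0.34 (adjusted p = 0.00082) at P30, the last being 1.15 and still called without replicate 2 of bipolars. Within rods the change was -1.13 ± 0.34 (adjusted p = 0.034) from P7 to P13, a call lost without any 1 of the 4 libraries at a nearly equal size (-1.16 to -1.10). From P13 to P30 it was -1.66 ± 0.34 (adjusted p = 0.0043), a call lost when only those 2 groups were fitted. The P7 to P30 change differed between cell types, by 3.27 ± 0.48 (adjusted p = 0.00071) for cones against rods and 3.57 ± 0.48 (adjusted p = 0.00016) for bipolars against rods. The antisense RNA Junos overlaps 232 exon bases of Jun and the sources used here do not say whether counting used strand, so its reads cannot be told apart from those of Jun.

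Junb (chromosome 8, 84974484 to 84978718), a Jun relative with weaker activity in AP-1, and Atf3 (chromosome 1, 191170296 to 191218039), a factor of the ATF and CREB family raised by cell injury, were low. Junb had 2.05 and 7.59 CPM at P7, 1.79 and 0.226 CPM at P13 and 1.11 and 2.01 CPM at P30 in rods. In cones it had 3.63 and 3.75 CPM at P7, 0.5101 and 2.396 CPM at P13 and 0.3203 and 0.147 CPM at P30. In bipolars it had 0.233 and 0.339 CPM at P7, 0.194 and 0 CPM at P13 and 0.821 and 4.77 CPM at P30, so the 4 bipolar libraries at P7 and P13 held at most 0.339 CPM. Rod bipolars had 0.583 and 0.0504 CPM and cone bipolars 0.195 and 0.442 CPM. Its single called difference, bipolars minus cones at P13, was -4.86 ± 1.72 (adjusted p = 0.048). That call was lost without replicate 1 (-5.97) or 2 (-3.76) of cones or replicate 2 of bipolars (-2.47), and under each change of filter, pseudocount, scaling or model run. The exons of Junb share 173 bases with Prdx2 on the other strand, so part of its count is uncertain. Atf3 had 5.01 and 3.31 CPM at P7, 2.003 and 0 CPM at P13 and 6.56 and 9.78 CPM at P30 in rods. Cones had 2.795 and 2.13 CPM at P7, 1.46 and 0.7901 CPM at P13 and 0.961 and 4.92 CPM at P30. Bipolars had 0.745 and 0.509 CPM at P7, 0.873 and 0 CPM at P13 and 6.05 and 15.6 CPM at P30, and rod bipolars 0 and 0.656 CPM and cone bipolars 2.104 and 1.92 CPM. Its 2 highest groups were the P30 bipolars and P30 rods. The SE of an Atf3 difference was 2.49, with 3 libraries without reads in the spread, and no comparison called it.

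Egr1 (chromosome 18, 34859823 to 34864984) encodes a zinc finger factor that is raised by light and by synaptic activity in many neurons. It had the widest range of the 10 genes in CPM. Cone libraries held 775 and 1876 CPM at P7, 476 and 226 CPM at P13 and 35.9 and 165 CPM at P30. Rod libraries held 28.4 and 25.7 CPM at P7, 274 and 372 CPM at P13 and 51.4 and 36.2 CPM at P30. Cones at P7 were above every other library, and in rods the P13 libraries were above those at P7 and P30. Bipolar libraries held 34.7 and 27.4 CPM at P7, 43.1 and 129.7 CPM at P13 and 64.7 and 285 CPM at P30. Rod bipolars held 3.46 and 27.7 CPM and cone bipolars 75.1 and 80.7 CPM. Replicate 2 was the higher one in bipolars at P13 and P30 and in rod bipolars, while the cone bipolar pair was close. At P7 rods minus cones was -5.48 ± 0.90 (adjusted p = 0.00065) and bipolars minus cones -5.29 ± 0.90 (adjusted p = 0.00054), and both calls held under every alternative run. At P13 rods minus cones was -0.04 ± 0.90 (adjusted p = 1), with cones at P13 below their P7 level and rods above theirs. In rods Egr1 rose by 3.56 ± 0.90 (adjusted p = 0.014) from P7 to P13, a call lost without replicate 2 of rods at P7 (3.49) or P13 (3.34). From P13 to P30 it changed by -2.89 ± 0.90 (adjusted p = 0.042), a call lost without any 1 of the 4 libraries (-3.14 to -2.63). It was also lost with plain read totals and when only those 2 groups were fitted. In cones the changes of -1.88 ± 0.90 (adjusted p = 0.53) and -2.09 ± 0.90 (adjusted p = 0.22) were not called. The P7 to P30 change of bipolars against that of cones was 6.11 ± 1.27 (adjusted p = 0.0089), and the call was lost without replicate 2 of bipolars at P30 (5.04). Rod bipolars minus cone bipolars was -2.99 ± 0.90 (adjusted p = 0.067), with both rod bipolar libraries below both cone bipolar libraries.

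Nr4a1 (chromosome 15, 101254269 to 101274795), an orphan nuclear receptor that calcium signalling raises in neurons, was highest in cones. Cone libraries held 119 and 159 CPM at P7, 115 and 106 CPM at P13 and 65.5 and 44.2 CPM at P30. Rod libraries held 26.96 and 7.12 CPM at P7, 35.5 and 26.1 CPM at P13 and 16.2 and 8.699 CPM at P30. All 6 cone libraries were above all 16 others. Bipolar libraries held 5.91 and 5.595 CPM at P7, 8.92 and 10.03 CPM at P13 and 18.1 and 35.05 CPM at P30. Rod bipolars held 7.87 and 8.37 CPM and cone bipolars 9.97 and 9.11 CPM. The bipolar libraries were ordered by age, with no overlap from an age to the next. The steps were 0.72 ± 0.50 (adjusted p = 0.64) and 1.41 ± 0.50 (adjusted p = 0.19), and neither was called. Rods minus cones was -3.31 ± 0.50 (adjusted p = 0.00033) at P7, -1.86 ± 0.50 (adjusted p = 0.013) at P13 and -2.18 ± 0.50 (adjusted p = 0.0052) at P30. The P13 call was lost without replicate 2 of rods (-1.64) or either cone library (-1.80 and -1.92), and the P30 call without replicate 2 of rods (-1.73). Bipolars minus cones was -4.58 ± 0.50 (adjusted p = 8.1e-06) at P7, -3.54 ± 0.50 (adjusted p = 9.2e-05) at P13 and -1.09 ± 0.50 (adjusted p = 0.1) at P30. Bipolars minus rods at P13 was -1.68 ± 0.50 (adjusted p = 0.013), a call lost without replicate 1 of rods (-1.46) or of bipolars (-1.60) and with plain read totals. The P7 to P30 change of bipolars exceeded that of cones by 3.48 ± 0.71 (adjusted p = 0.0081).

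Ier3 (chromosome 17, 35821684 to 35822923) encodes a small protein that shields cells from death signals. Rod libraries held 449 and 377 CPM at P7, 511 and 738 CPM at P13 and 329.96 and 328 CPM at P30. Cone libraries held 132 and 171 CPM at P7, 229 and 198 CPM at P13 and 213 and 247 CPM at P30. Rods were above cones at each age with no overlap. Bipolar libraries held 10.9 and 7.46 CPM at P7, 5.58 and 2.81 CPM at P13 and 20.1 and 23.1 CPM at P30. Rod bipolars held 8.09 and 5.801 CPM and cone bipolars 7.87 and 5.01 CPM. The 12 photoreceptor libraries and the 10 bipolar libraries did not overlap. Bipolars minus rods was -5.51 ± 0.32 (adjusted p = 5.7e-09), -7.27 ± 0.32 (adjusted p = 2.6e-10) and -3.93 ± 0.32 (adjusted p = 1.6e-07) at P7, P13 and P30. Bipolars minus cones was -4.06 ± 0.32 (adjusted p = 2.3e-07), -5.75 ± 0.32 (adjusted p = 5.2e-09) and -3.42 ± 0.32 (adjusted p = 1.7e-06). All 6 of these calls held under every alternative run. Rods minus cones was 1.45 ± 0.32 (adjusted p = 0.0061) at P7 and 1.53 ± 0.32 (adjusted p = 0.0028) at P13, and 0.52 ± 0.32 (adjusted p = 0.27) at P30. The P7 call was lost without replicate 1 of rods (1.33) or of cones (1.27). From P13 to P30 Ier3 rose in bipolars by 2.44 ± 0.32 (adjusted p = 0.001), the sole gene of the 10 called at that step, and this call held without any 1 library but was lost with voom weights. Over the same step the summed cone markers in bipolars went from 114 and 129 CPM to 427 and 443 CPM. The summed rod markers went from 224 and 232 CPM to 391 and 472 CPM. The part of photoreceptor RNA in the rise of Ier3 was not tested.

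Ier2 (chromosome 8, 84661331 to 84662852), a nuclear protein gene of the growth factor response, was low and followed the photoreceptors at P7. Rod libraries held 13.8 and 11.2 CPM at P7, 5.903 and 9.63 CPM at P13 and 7.22 and 5.56 CPM at P30. Cone libraries held 13.01 and 22.2 CPM at P7, 7.07 and 4.51 CPM at P13 and 4.72 and 8.36 CPM at P30. The 4 photoreceptor libraries at P7 were above all other libraries. Bipolar libraries held 4.05 and 3.504 CPM at P7, 4.66 and 4.36 CPM at P13 and 5.08 and 5.59 CPM at P30, with rod bipolars at 1.94 and 1.61 CPM and cone bipolars at 2.77 and 4.13 CPM. Bipolars minus rods at P7 was -1.72 ± 0.57 (adjusted p = 0.03), a call lost without any 1 of the 4 libraries (-1.87 to -1.58). Bipolars minus cones at P7 was -2.17 ± 0.57 (adjusted p = 0.014), lost without replicate 2 of cones (-1.79) or either bipolar library (-2.27 and -2.07). Bipolars held 3.50 to 5.59 CPM at all ages, and the replicates of bipolars at P13 and P30, far apart for Fos and Egr1, were close for Ier2.

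Dusp1 (chromosome 17, 26505590 to 26562128), the phosphatase that inactivates MAP kinases, had the bipolars of each age as its 3 highest groups. Fosb had the same 3 groups highest by mean log2 CPM, at low levels and with libraries that overlapped those of the next group. For Dusp1, bipolar libraries held 36.5 and 41.3 CPM at P7, 15.2 and 24.97 CPM at P13 and 31.1 and 66.1 CPM at P30. Rod libraries held 5.64 and 8.16 CPM at P7, 9.35 and 6.87 CPM at P13 and 6.79 and 15.8 CPM at P30. Cone libraries held 4.45 and 5.97 CPM at P7, 2.27 and 6.42 CPM at P13 and 0.4004 and 3.91 CPM at P30. At each age both bipolar libraries were above the rod and cone libraries of that age. Rod bipolars held 6.31 and 14.8 CPM and cone bipolars 11.96 and 16.002 CPM. Bipolars minus cones was 2.91 ± 0.86 (adjusted p = 0.026) at P7, 2.35 ± 0.86 (adjusted p = 0.055) at P13 and 5.16 ± 0.86 (adjusted p = 0.00031) at P30. Bipolars minus rods was 2.52 ± 0.86 (adjusted p = 0.034), 1.28 ± 0.86 (adjusted p = 0.24) and 2.13 ± 0.86 (adjusted p = 0.056). Both P7 calls were lost without any 1 of their 4 libraries (2.25 to 3.12). Rods minus cones at P30 was 3.03 ± 0.86 (adjusted p = 0.017). This difference was 1.40 and not called without replicate 1 of cones at P30, where Dusp1 had 0.4004 CPM, 2.43 and not called without replicate 2 of rods, and 4.67 without replicate 2 of cones. The call for bipolars minus cones at P30 was lost when only those 2 groups were fitted. Dusp1 shares 11 exon bases with Ergic1, so a small part of its count is uncertain.

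Ranked by mean log2 CPM over the 11 groups, neighbours in the order were mostly not separated by their libraries. For Ier3 the order was rods at P13, P7 and P30, cones at P30, P13 and P7, and bipolars at P30, and then bipolars at P7, rod bipolars, cone bipolars and bipolars at P13. Within it the libraries of cones at P30 and P13 overlapped, as did those of each neighbouring pair among the last 4 groups, and the other 6 of the 10 neighbouring pairs did not. For Nr4a1 the 3 cone groups led in the order P7, P13 and P30 with no overlap, and 5 of the 10 neighbouring pairs did not overlap. Jun ran from rods at P7 through bipolars at P30, rods at P13 and cones at P30 down to rods at P30 and rod bipolars, with 6 pairs apart. For Egr1, cones at P7 stood apart from the next group, and 2 pairs in all did. Ier2 and Atf3 had 4 pairs apart, Fosb and Dusp1 had 1, and Fos and Junb had 0.

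Set beside all genes tested, the share of the 10 that was called stood above the background in rods and in bipolars against cones at P7, and nearer to it or below it in the other comparisons of cell types. In rods against cones 2 were higher and 3 lower at P7, where 3.3% of all genes were called higher and 9.52% lower (12.8% in either direction). At P13 it was 1 higher and 1 lower, against 7.1% of all genes higher and 14.1% lower (21.2% in either direction). At P30 it was 1 higher and 2 lower, against 9.98% of all genes higher and 10% lower (20% in either direction). In bipolars against rods 1 was higher and 3 lower at P7, where 16.5% of all genes were called higher and 12% lower (28.4% in either direction). At P13 it was 0 higher and 2 lower, against 25.2% of all genes higher and 15% lower (40.3% in either direction), and at P30 2 higher and 1 lower, against 22% of all genes higher and 15.7% lower (37.7% in either direction). In bipolars against cones 1 was higher and 4 lower at P7, where 5.4% of all genes were called higher and 10.2% lower (15.6% in either direction). At P13 it was 0 higher and 3 lower, against 11.7% of all genes higher and 10.5% lower (22.2% in either direction), and at P30 2 higher and 1 lower, against 19.3% of all genes higher and 11.1% lower (30.4% in either direction). The median difference, bipolars minus rods, was -1.496 at P7, -0.78 at P13 and 1.35 at P30, against 0.19, 0.27 and 0.08 over all genes. For bipolars minus cones it was -2.07, -1.23 and 1.20, against 0.01, 0.08 and 0.14. The median of the 10 thus lay lower in bipolars than in photoreceptors at P7 and P13. At P30 it lay higher, and that rested on replicate 2 of bipolars, without which the medians were 0.36 against rods and -0.07 against cones. Against cones at P30 it was 2.36 without replicate 1 of bipolars and 0.69 without replicate 1 of cones. Against cones at P13 it was -0.30 without replicate 2 of bipolars and -0.80 without replicate 1 of cones. Against rods it was -0.94 at P7 without replicate 1 of rods, and at P13 -1.23 without replicate 2 of bipolars and -1.35 without replicate 2 of rods. For rods minus cones the medians were -0.18, 0.68 and -0.00, against -0.16, -0.11 and 0.14. Those at P7 and P30 changed sign with the library left out, running from -0.57 to 0.16 and from -0.23 to 0.37.

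**Figure D2:**
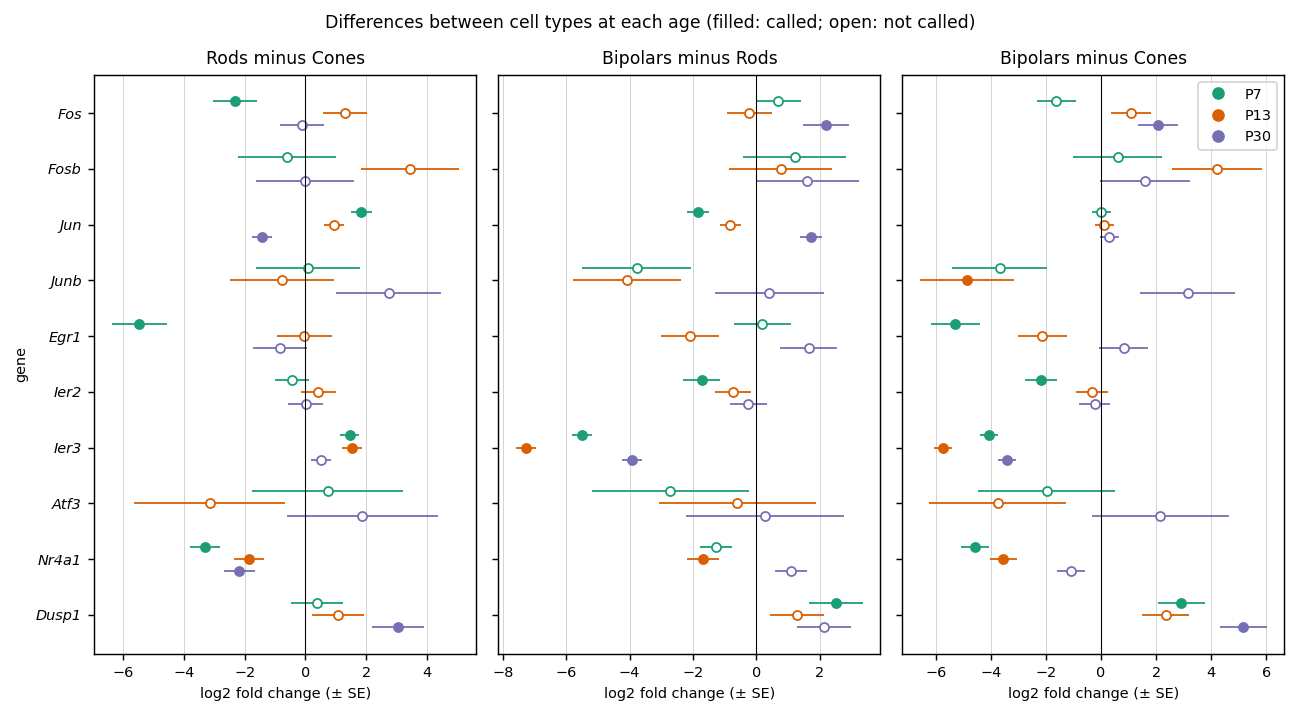
log2 fold change ± SE (x axis) of each of the 10 genes (y axis) between cell types at P7, P13 and P30, from limma with 2 libraries per group. Filled points were called and open ones were not. Ier3 is far below 0 at all ages in both panels with bipolars, Jun changes sign between P7 and P30 in both panels with rods, and the Atf3 bars, with an SE of 2.49, are the widest.

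Between successive ages, genes were called in rods at both steps and in cones at neither. Such calls depended on the spread pooled over all groups. With only the 2 compared groups fitted, all-gene calls in rods went from 1695 to 25 at the first step and from 1614 to 6 at the second. In cones they went from 59 to 95 and from 429 to 0, and in bipolars from 400 to 2026 and from 250 to 1238. The values that follow are from the fit of all groups. From P7 to P13 in rods, Fos and Egr1 rose and Jun fell. That was 2 higher and 1 lower, where 5.62% of all genes were called higher and 7.02% lower (12.6% in either direction). From P13 to P30 Jun and Egr1 fell, which was 0 higher and 2 lower, against 6.74% of all genes higher and 5.3% lower (12% in either direction). In cones 0 of the 10 genes were called at either step by limma, against 0.216% of all genes higher and 0.224% lower (0.44% in either direction) from P7 to P13 and 0.85% of all genes higher and 2.35% lower (3.2% in either direction) from P13 to P30. The unadjusted limma p was under 0.05 for Fosb and Ier2 from P7 to P13 and for Egr1 from P13 to P30. Their differences were -3.64 ± 1.62, -1.59 ± 0.57 and -2.09 ± 0.90. The share of all genes at that looser threshold was not counted, so these are values of single genes and not a result about the 10. The median cone change from P7 to P13 was -1.21, against -0.06 over all genes. In bipolars 0 genes were called by limma from P7 to P13, against 2.3% of all genes higher and 0.686% lower (2.98% in either direction). Ier3, at -1.18 ± 0.32, had an unadjusted limma p under 0.05, again with no share of all genes counted at that threshold. From P13 to P30 1 was higher, Ier3, against 1.4% of all genes higher and 0.47% lower (1.86% in either direction). All 10 differences of bipolars from P13 to P30 were above 0, with a median of 1.06 against 0.01 over all genes. Without replicate 2 of bipolars at P30, 7 of the 10 were above 0 with a median of 0.49, and Fos, Fosb and Egr1 were below 0. The median was 1.91 without replicate 1 at P30, 0.67 with 8 above 0 without replicate 1 at P13, and 1.75 without replicate 2 at P13. In rod bipolars against cone bipolars 0 genes were higher and 1, Fosb, was lower, against 1.51% of all genes higher and 3.17% lower (4.68% in either direction), and 9 of the 10 differences were below 0, with a median of -0.85 against -0.06. The exception was Ier3, at 0.12 ± 0.32.

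The change from P7 to P30 was also compared between cell types. It was called for Jun (higher) and Egr1 (lower) in cones against rods, where 4.57% of all genes were called higher and 6.04% lower (10.6% in either direction). It was higher for 3 genes in bipolars against rods, Jun, Ier3 and Nr4a1, against 8.26% of all genes higher and 6.17% lower (14.4% in either direction). It was higher for 3 in bipolars against cones, Fos, Egr1 and Nr4a1, against 5.8% of all genes higher and 2.51% lower (8.31% in either direction). The median over the 10 genes was 1.54 for bipolars against rods and 2.87 for bipolars against cones, against -0.08 and 0.28 over all genes. The first was 2.54 without replicate 1 of bipolars at P30. These contrasts share the bipolar libraries and are not independent.

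In some groups the 2 libraries differed by at least 2-fold for a larger share of the 10 genes than of all tested genes. These were bipolars at P30 and P13, rod bipolars, and cones at P13 and P30. For cones at P7 the 2 shares were close. In bipolars at P30 all 10 genes were higher in replicate 2, and 7 of them by at least 2-fold, where 18.1% of all tested genes differed by that much in either direction. The log2 difference of replicate 2 from replicate 1 was 2.09 for Fos, 2.14 for Egr1, 2.96 for Fosb, 2.53 for Junb, 1.37 for Atf3, 1.17 for Jun and 1.09 for Dusp1. Nr4a1, Ier3 and Ier2 differed less, by 0.95, 0.20 and 0.14. The median of the 10 absolute differences was 1.27, against 0.353 over all tested genes. In bipolars at P13, 5 of the 10 differed by 2-fold (13.9% of all tested genes), with Fos, Fosb and Egr1 higher in replicate 2 (2.00, 3.69 and 1.59) and Junb and Atf3 without reads there. In rod bipolars 6 of the 10 did (23.9%), with Egr1 higher by 2.997 and Fos by 1.79 in replicate 2. In bipolars at P7 none of the 10 did (7.89%) and in cone bipolars 1, Junb (13.5%). In cones 2 did at P7 (15.5%), 4 at P13 (24.7%) and 5 at P30 (31.2%). In rods 2 did at P7 (26.4%), 3 at P13 (38.6%) and 1 at P30 (22.1%). Replicates have no order, so these differences are between single libraries.

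**Figure D3:**
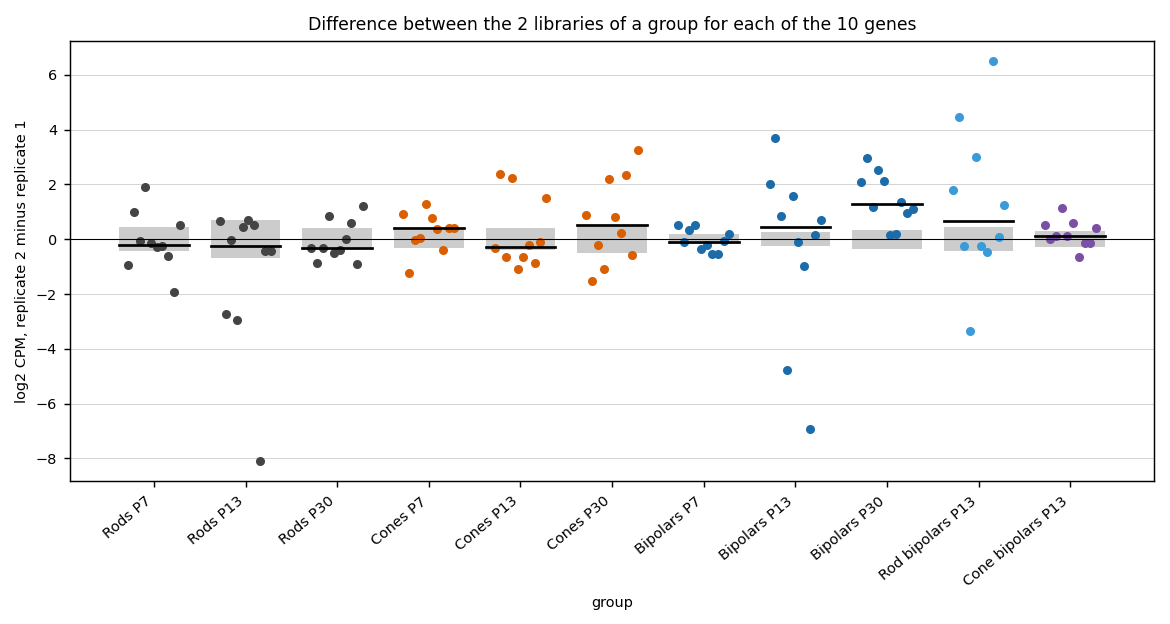
log2 CPM of replicate 2 minus replicate 1 (y axis) for each of the 10 genes (points) in each group (x axis). The black line is the median of the 10 genes, and the grey band spans the median absolute difference of all tested genes to either side of 0. In bipolars at P30 all 10 points lie above 0 with a median of 1.27, and the widest spreads include genes with no reads in 1 library.

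Markers of other retinal cells moved with age in the bipolar libraries. Müller glia, microglia and vessel cells can raise immediate early genes after dissociation. The summed level of 12 Müller glia markers was 241 and 225 CPM in bipolars at P7, 897 and 1153 CPM at P13 and 5315 and 8312 CPM at P30, with all 12 detected at each age. In the photoreceptor groups it ran from 133 to 924 CPM. The sum of 11 microglia markers was 16.8 and 7.404 CPM, 112 and 107 CPM and 560.2 and 1225 CPM in bipolars. For 11 endothelial and mural markers it was 27.1 and 30.6 CPM, 95.5 and 105 CPM and 535 and 721 CPM. Replicate 2 of bipolars at P30, the library with the highest Fos, also had the higher level of all 12 Müller glia markers, of 10 of 11 microglia markers and of 7 of 11 endothelial and mural markers. In that group 48.5% of all tested genes were higher in replicate 2. Photoreceptor markers were mostly higher in it too, 7 of 8 for rods and 6 of 8 for cones, while 2 of 10 bipolar markers were. In bipolars at P13, replicate 2 had the higher sum of 7 amacrine markers (75.8 and 326 CPM) and of 8 ganglion cell markers (38.7 and 153 CPM), and 10 of the 12 Müller glia markers were also higher in it, while 4 of the 11 microglia markers were. In rod bipolars the amacrine sum was 23.8 and 153 CPM and the Müller sum 92.7 and 247 CPM. The part of these cells in the levels of the 10 genes was not tested. At P7, where Egr1 and Nr4a1 stood highest in cones, the Müller sum was 316 and 224 CPM in cones and 133 and 166 CPM in rods, and the microglial sum 12.7 and 6.29 CPM and 1.36 and 44.5 CPM. In rods at P7 the Müller markers Aqp4 and Gfap and the microglial marker C1qa had no reads.

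**Figure D4:**
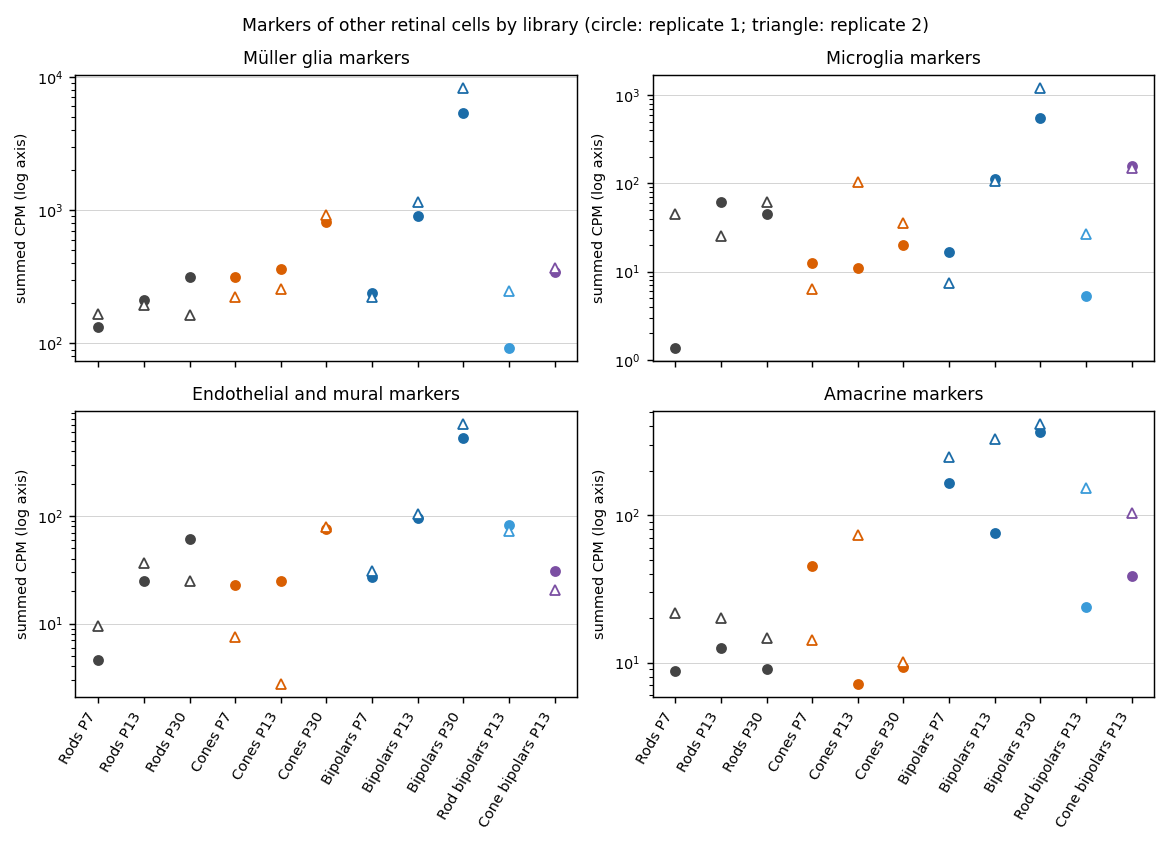
Summed CPM (y axis, log scale) of markers of Müller glia, microglia, endothelial and mural cells, and amacrine cells in each of the 22 libraries (x axis, by group; circles replicate 1, triangles replicate 2). Bipolars at P30 are the highest group in each panel, from 5315 and 8312 CPM for Müller glia to 367 and 417 CPM for amacrine cells.

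The wider pathway was read from 8 gene lists that hold none of the 10. Their counts stand against the same shares of all genes called as above. Medians are of log2 differences, rods minus cones, at P7, P13 and P30, with genes without reads in a group set to their bound, and stand against -0.16, -0.11 and 0.14 over all genes. Of 31 tested genes of the other rapid response list, 4 were higher and 4 lower in rods than in cones at P7, 3 higher and 4 lower at P13, and 5 higher and 2 lower at P30 (medians 0.34, 0.00 and 0.31). Trib1, which encodes an adaptor that turns over signalling proteins, was higher in rods by 3.40 ± 0.41 (adjusted p = 3.5e-05) at P7, with 644 and 659 CPM in rods and 67.05 and 56.6 CPM in cones. Spry2, an inhibitor of receptor tyrosine kinase signalling, was higher in rods by 3.29 ± 0.41 (adjusted p = 5.5e-05) at P7 and 3.49 ± 0.41 (adjusted p = 2.1e-05) at P13. Socs3, the feedback inhibitor of cytokine signalling, had no reads in rods at P13, which allows up to 0.0440 CPM by counting error only and does not cover the spread between libraries, and 67.6 and 60.99 CPM in cones. Sgk1, a kinase raised by steroids and cell stress, rose in rods from P13 to P30 by 5.47 ± 0.65 (adjusted p = 7.3e-05), from 16.2 and 19.6 CPM to 656 and 955 CPM. In bipolars against cones the same list had 2 higher and 4 lower at P7, 7 higher and 3 lower at P13 and 10 higher and 3 lower at P30. Its median, bipolars minus cones, was -0.08, 0.51 and 2.01, and was unchanged with genes without reads in a group set to their bound. With 1 library left out its sign at P7 changed (-0.32 to 0.18), and at P13 it was 0.83 and 1.31 without replicate 1 and replicate 2 of cones. In the P30 bipolar pair 25 of the 31 were higher in replicate 2 (share of all tested genes given above). The other lists did not all do so. Higher in it were 1 of 6 AP-1 and CREB relatives, 3 of 10 MAP kinase phosphatases and 5 of 10 neuronal activity genes. So were 18 of 37 upstream kinases and factors, 5 of 8 EGR, NR4A and KLF relatives, 15 of 22 heat shock genes and 12 of 19 ATF4 and DNA damage genes.

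Of 37 kinases, factors and cofactors upstream of these genes or acting on their products, 1 was higher and 3 lower in rods than in cones at P7, 6 higher and 7 lower at P13, and 5 higher and 5 lower at P30 (medians 0.06, 0.15 and 0.05). Nab1, a corepressor that EGR proteins recruit, was lower in rods, with rods minus cones at -2.43 ± 0.36 (adjusted p = 0.00028) at P7 and -3.80 ± 0.36 (adjusted p = 2.5e-06) at P13. Its levels were 89.6 and 95.1 CPM in cones, 12.2 and 24.05 CPM in rods and 10.9 and 15.3 CPM in bipolars at P7, and cones held the highest Nab1 of the 3 cell types at each age. Camk4, a calcium-dependent kinase of CREB, was a bipolar transcript, at 357 and 387 CPM in bipolars, 8.74 and 2.81 CPM in cones and 2.27 and 3.86 CPM in rods at P7, and bipolars minus cones was 6.22 ± 0.95 (adjusted p = 0.00021). Of 6 tested AP-1 and CREB relatives, 0 were higher and 1 lower in rods than in cones at P7, 1 higher and 1 lower at P13, and 0 higher and 1 lower at P30 (medians 0.39, -1.73 and -0.15). Crem, which encodes CREB-like activators and repressors, was lower in rods at P13, where rods minus cones was -2.31 ± 0.36 (adjusted p = 0.00026), with 15.8 and 9.76 CPM in rods and 64.1 and 59.5 CPM in cones. Nfil3, a leucine zipper repressor, was higher in bipolars than in cones at P7 by 1.93 ± 0.32 (adjusted p = 0.00042). Of 8 EGR, NR4A and KLF relatives, 1 was higher and 1 lower in rods than in cones at P7, and 0 were called at P13 or P30 (medians -0.07, 0.74 and 0.75). In the same list 0 were higher and 1 lower in bipolars than in cones at P7, 0 were called at P13, and 4 were higher at P30. Among the last, Klf2, a factor of vessel cells and lymphocytes, had 7.33 and 25.3 CPM in bipolars and no reads in cones at P30.

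Of 10 MAP kinase phosphatases other than Dusp1, 1 was higher and 1 lower in rods than in cones at P7, 1 higher and 4 lower at P13, and 1 higher and 2 lower at P30 (medians -1.47, -1.90 and -0.38). Dusp14 was higher in rods than in cones at P30 by 4.07 ± 0.61 (adjusted p = 0.00018), with 119.97 and 174 CPM in rods, 11.4 and 6.48 CPM in cones and 1.43 and 2.16 CPM in bipolars. Both photoreceptor types were thus above bipolars for Dusp14 and below them for Dusp1. Between rods and cones at P30 the 2 genes went the same way, both higher in rods. Of 22 heat shock genes, 0 were higher and 1 lower in rods than in cones at P7, 0 higher and 3 lower at P13, and 3 higher and 7 lower at P30 (medians -0.31, -0.45 and -0.51). Hsph1, a partner of HSP70, was lower in rods at each age, with rods minus cones at -1.86 ± 0.34 (adjusted p = 0.0016), -1.93 ± 0.34 (adjusted p = 0.00077) and -3.32 ± 0.34 (adjusted p = 5.0e-06). The stress-induced HSP70 genes Hspa1a and Hspa1b, near-identical copies whose reads may have been split, were both higher in rods than in bipolars in every library of the same age. At P30 Hspa1a had 69.2 and 74.6 CPM in rods and 3.405 and 7.82 CPM in bipolars, a difference of -3.80 ± 0.57 (adjusted p = 8.3e-05) for bipolars minus rods. In that comparison 7 heat shock genes were higher and 6 lower, so the list did not move in 1 direction. Of 19 genes of the ATF4 and DNA damage response, 2 were higher and 1 lower in rods than in cones at P7, 3 higher and 5 lower at P13, and 3 higher and 5 lower at P30 (medians -0.32, -0.22 and -0.06). Mt1, a metallothionein raised by metals and stress, had 1710 and 2042 CPM in cones, 0.492 and 0 CPM in rods and 10.04 and 9.65 CPM in bipolars at P13. Of 10 neuronal activity genes, 0 were higher in rods than in cones at any age, and 3, 2 and 2 were lower at P7, P13 and P30 (medians -2.81, -2.19 and -0.995).

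Among the genes whose pattern was most like the mean of the 10 over the 22 libraries, of 11422 genes compared, were Nrros, Hmgcs1, Lnx2, Mfhas1, Stx2, Pwwp2b and 1700017B05Rik. Pearson's r ran from 0.81 to 0.91, highest for Nrros, a protein of the endoplasmic reticulum known from microglia. None belongs to the wider lists. The mean of the 10 was lowest in the rod bipolar libraries, where Fosb and Atf3 had no reads in replicate 1, so genes low in rod bipolars rank high by this measure. The libraries share cell types and depth, and the values are a description.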

How the data were processed

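RNA of sorted mouse retinal cells was linearly amplified and sequenced from TruSeq libraries, per the labels' protocols. The deposited table holds log2 CPM per gene, made by the authors; the submitters' processing notes name STAR, edgeR and the GRCm38 (mm10) genome. For tool versions, counting, annotation and filtering by the authors, the entry is "not given in the sources used here". In the deposited log2 values every entry came out as a whole read (100% within 0.01), with the authors' effective library sizes at 0.608 to 1.23 times the total of 14403312 to 54384385 reads. Counting error is thus small except for genes with few reads, and each library has between 174 and 2463 genes without reads, listed at -7.10. It does not cover the spread between libraries, and a gene without reads in 1 library can have many in the other, as Atf3 in rods at P13. Ensembl identifiers were matched to GENCODE M21 symbols (13785 matched, 27 did not, which held at most 0.378% of reads).

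A gene was tested where some group had both libraries at or above a log2 CPM of 0 (13405, with 380 left out). A single limma model (limma 3.58.1, R 4.3.3) held all 22 libraries and 11 groups, with 11 residual and 4.27 prior degrees of freedom. A call needed an adjusted p (Benjamini-Hochberg, all tested genes) under 0.05 and an absolute log2 fold change of at least 1, in 19 comparisons. On simulated data for rods against cones at P7, with 200 of 13405 genes changed, 84.5% were recovered with 4 false calls. There every gene had the same spread, the median of the data, and all planted changes were well above the threshold for a call. These rates do not carry over to smaller changes or to genes that vary more, such as Atf3, Junb and Fosb. Named genes beyond the 10 were, per wider list and comparison, at most the 3 called genes of largest change with no overlap between groups and a higher-group mean of log2 CPM 3 or more, and the 8 genes most correlated with the mean of the 10, of which 1 is not reported here. The genes and lists were chosen with earlier results of these data known. Alternatives were no filter, a pseudocount of 1, plain read totals, a replicate block, fits of only the compared groups and each library left out; totals without mitochondrial transcripts and voom weights on recovered reads were added after seeing the data. Promoter windows are from RefSeq (GRCm38.p6).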

Additional observations from a re-analysis of the deposited data

Results flagged for a closer look

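For 8 pairs of gene and contrast, the change from P7 to P30 differed between 2 cell types by the test of the difference itself (limma, interaction term, 2 libraries per group, adjusted over all genes). Jun fell in rods, from 190.3 and 183 CPM to 30.3 and 24.2 CPM, and its change was higher in cones than in rods by 3.27 ± 0.48 (adjusted p = 0.00071) and in bipolars than in rods by 3.57 ± 0.48 (adjusted p = 0.00016). Both Jun calls, and that of Nr4a1 in bipolars against cones, 3.48 ± 0.71 (adjusted p = 0.0081), held under every alternative run. For Egr1 the change was 6.11 ± 1.27 (adjusted p = 0.0089) in bipolars against cones, lost without replicate 2 of bipolars at P30 (5.04). In cones against rods it was -4.64 ± 1.27 (adjusted p = 0.03), lost without replicate 1 or 2 of rods at P7, replicate 1 of rods at P30, replicate 1 or 2 of cones at P7 or replicate 1 of cones at P30 (-5.28 to -3.54). For Fos the change in bipolars against cones was 3.70 ± 1.02 (adjusted p = 0.036). It was lost without either cone or either bipolar library at P7, replicate 1 of cones at P30 or replicate 2 of bipolars at P30 (2.65 to 4.16). For Nr4a1 in bipolars against rods it was 2.35 ± 0.71 (adjusted p = 0.036), which was 1.39 without replicate 1 of rods at P7. That call was also lost without replicate 2 of rods at P30, either bipolar library at P7 or replicate 2 of bipolars at P30 (1.88 to 2.39). For Ier3 in bipolars against rods it was 1.58 ± 0.46 (adjusted p = 0.029), lost without replicate 1 of rods at P7, either rod library at P30, or replicate 2 of bipolars at P7 or P30 (1.31 to 1.59). The Müller glia sum rose from 241 and 225 CPM to 5315 and 8312 CPM over the same ages in bipolars, and its part in these differences was not tested.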

How the results depend on the processing

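Of the 45 calls over the 10 genes and 19 comparisons, 44 held with no filter, 43 with log2(CPM + 1), 40 with plain read totals, 34 with only the compared groups fitted, 41 with totals without mitochondrial transcripts and 37 with voom weights (the last 2 chosen after seeing the data). When each library of a comparison was left out in turn, 21 held throughout. None reversed. Replicate numbers showed no strong pairing of the libraries: over 55 pairs of groups the correlation of deviations ran from -0.14 to 0.193, with 5 above 0.1. These pairs mix ages, and a pairing of cell types within 1 age was not tested on its own. With the replicate block 44 calls held, 4 were gained and the count for rod against cone bipolars was 2. With log2(CPM + 1) the counts became 1 for bipolars from P7 to P13, 2 from P13 to P30 and 5 for the P7 to P30 change in bipolars against cones. With plain totals they became 1 for bipolars against rods at P13 and 1 for rods from P13 to P30. Totals without mitochondrial transcripts gave 1 for each of these and 1 for bipolars from P7 to P13. With only the compared groups fitted they became 8 for bipolars against cones at P7 and 1 at P30, 1 for rods from P7 to P13 and 0 from P13 to P30, 2 for bipolars from P13 to P30, and 0 for rod against cone bipolars. With voom they became 0 for bipolars from P13 to P30, 0 for rod against cone bipolars and 1 for the P7 to P30 change in bipolars against rods. The cause was not tested.

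With 1 library left out, counts ran from 3 to 4, 1 to 3 and 0 to 3 for rods against cones at P7, P13 and P30, from 2 to 3, 1 to 3 and 2 to 3 for bipolars against rods, and from 3 to 4, 2 to 4 and 2 to 3 for bipolars against cones. They ran from 0 to 3 and 1 to 3 for the 2 steps in rods, 0 to 0 and 0 to 1 in cones, 0 to 1 and 1 to 2 in bipolars, and 0 to 2 for rod against cone bipolars. For the P7 to P30 change they ran from 1 to 3 in cones against rods, 1 to 3 in bipolars against rods and 1 to 4 in bipolars against cones. In such a fit the lone library is assumed to vary like the other groups.

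Plain totals moved the median of all genes, from 0.14 to 0.74 for rods against cones at P30, from 0.14 to 0.87 for bipolars against cones at P30 and from 0.27 to 0.75 for bipolars against rods at P13. All-gene calls went from 429 to 972 in cones from P13 to P30, from 59 to 110 from P7 to P13, from 1422 to 2337 for the P7 to P30 change in cones against rods and from 1114 to 1719 in bipolars against cones. With 2 libraries per group, Fosb, Junb and Atf3 were too variable for small differences to be called.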
